A study of Zea mays with 45 samples.

Results

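The genes nfa104, nfc102, gtc102 and cenH3, which act in assembling nucleosomes and chromatin in maize, were followed across 3 kinds of comparison. Their probes were picked by name from the annotation of spotted cDNA arrays. The platform annotation lists them under the symbols LOC542654, LOC541934, LOC542546 and LOC542500, and the gene names are synonyms of these entries in a current maize annotation. The 4 genes hold 5 probes and 15 spots on each of the 2 array tables, out of 5640 and 5760 probes, and they are 4 of the 329 genes that have a name on either table. Gene nfc102 has 2 probes, here called the first and the second; every other member has 1.

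DNA in the nucleus is wound around histone octamers, and histone chaperones load and remove histones when DNA is copied or read. A nucleosome assembly protein of the NAP family (nfa104) carries histones to DNA, a WD-repeat protein of the MSI family (nfc102) binds histones within assembly and silencing complexes as described in Arabidopsis, and SPT16 (a synonym of gtc102) is the large subunit of the FACT complex, which loosens nucleosomes ahead of polymerases. The centromeric histone cenH3 replaces the usual histone H3 in the nucleosomes on which kinetochores form, and it is needed in dividing cells.

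Leaf RNA came from the inbred W23, partly labelled as the b,pl stock, and from 5 landraces, which were Confite and Mishca on the one hand and Arrocillo, Cacahuacintle and Conico on the other. Field plants grew under cellulose acetate, which lets solar UV-B through, under polyester, which removes it, or under lamps that supplement it, and the filters went up about 14 days after sowing. In the landrace comparisons a landrace and W23 shared 1 array and 1 treatment, with supplementary UV-B or without UV-B; for Confite and Mishca this was a greenhouse exposure of 8 h under lamps, with polyester over the lamps of the plants without UV-B. Each of the 45 columns gives a log2 ratio of 2 RNAs, and 36 of them are distinct arrays: solar UV-B was set against no UV-B on 9, supplemental against solar UV-B on 8, W23 against Arrocillo, Cacahuacintle or Conico on 12, and W23 against Confite or Mishca on 7.

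Which RNA is on top of the deposited ratio is not given in the sources used here, so a value is only called positive or negative as deposited, once the median of each array was subtracted, and never higher or lower in a treatment. Arrays of 1 group labelled in opposite channel orders correlated between -0.23 and 0.46 over spots in the solar comparison, at -0.11 and -0.06 in the supplemental one, and between -0.19 and 0.43 against W23. Whole-leaf RNA cannot tell fewer cells that express a gene from less RNA per cell, and nothing in the labels says that replicate arrays came from separate plants, so p-values measure the spread between arrays. Against W23 in Confite and Mishca that spread is pooled over all probes. Of the used arrays, between 4.02% and 72.6% of the spots were blank.

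In the comparison of solar UV-B with no UV-B, 3 of the 4 members that could be tested were called, all on the negative side: nfa104, the second nfc102 probe and cenH3. A call means an adjusted p under 0.05 in a limma fit over all probes of the table. Of the 4239 probes tested, 35.0% were called, 16.9% positive and 18.1% negative, so a call is a common event in this comparison. Of the calls 48.4% were positive, or 77.1% where arrays were not centred. The median over the 4 tested members was -0.22 and that over all probes 0.01.

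The nucleosome assembly gene nfa104 gave the most negative mean of the members. Its centred log2 ratios were -0.60 and -0.43 on the W23 arrays, -0.48 for Confite, -0.45 and 0.03 for Mishca, -0.30 for Arrocillo, -0.64 for Cacahuacintle, and -0.18 and 0.25 for Conico. Thus 7 of 9 arrays lay on the negative side, and both exceptions were arrays of the same channel order. The mean over the 6 lines was -0.35 (SE 0.04, n = 9 arrays), a 1.28-fold difference with an adjusted p of 0.00678 by limma, and 3.56% of the tested probes lay at or below it. By line the order ran from Cacahuacintle (-0.64) through W23 (-0.52), Confite (-0.48), Arrocillo (-0.30) and Mishca (-0.21) to Conico (0.03). Cacahuacintle, Confite and Arrocillo rest on 1 distinct array each and take their error from the remaining lines. Their columns were deposited under both channel orders, so the channel term does not adjust them. Cacahuacintle (adjusted p = 0.0439, limma) and W23 (adjusted p = 0.0168, limma) were called alone, against 7.17% and 23.8% of all probes; in Confite, Conico, Arrocillo and Mishca those shares were 6.63%, 4.67%, 0.543% and 0.0236%. The test of a difference between lines missed the threshold (adjusted p = 0.0919, limma; 0.0236% of all probes passed it), so no neighbours in that order were shown to differ.

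The second probe of nfc102 stood on the negative side in 6 of 6 lines, from -0.32 in Confite to -0.15 in Mishca. Single arrays gave -0.47 and -0.04 for W23, -0.32 for Confite, -0.39 and 0.10 for Mishca, -0.28 for Arrocillo, -0.21 for Cacahuacintle, and -0.45 and -0.08 for Conico. Its mean was -0.25 (SE 0.04, n = 9 arrays; 1.19-fold; adjusted p = 0.00954, limma), and no line was called on its own. The first probe of the same gene was measured on 6 of 9 arrays and was therefore not tested over all lines; it gave 0.05 for W23, -0.33 for Confite, -0.16 and 0.16 for Mishca, and -0.01 and 0.61 for Conico. In W23, Mishca and Conico, the 3 lines with arrays of both orders, the first probe had a mean of 0.04 (adjusted p = 0.706, limma) and the second a mean of -0.22 (adjusted p = 0.0368, limma). These means rest on unlike arrays, since the first W23 array, at -0.47 for the second probe, was blank for the first, and the difference between the probes was not tested.

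Centromeric histone cenH3 had the narrowest range of the 4 probes measured on all 9 arrays, and 8 of 9 lay on the negative side. Its values were -0.19 and 0.08 for W23, -0.18 for Confite, -0.17 and -0.12 for Mishca, -0.26 for Arrocillo, -0.21 for Cacahuacintle, and -0.23 and -0.34 for Conico. All 6 line values were negative, from -0.29 in Conico to -0.06 in W23, and the mean was -0.19 (SE 0.05, n = 9 arrays; 1.14-fold; adjusted p = 0.0268, limma). The call was lost when either Mishca array or either Conico array was left out, with adjusted p between 0.0542 and 0.123 by limma.

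The SPT16 gene gtc102 spread over both sides, and its mean of -0.02 (SE 0.10, n = 9 arrays) was not called (adjusted p = 0.878, limma). Both W23 arrays were negative, at -0.70 and -0.33, and both Conico arrays were at or above 0, at 0.53 and 0.00. Mishca gave 0.33 and -0.47, Confite -0.12, Arrocillo 0.01 and Cacahuacintle 0.30. Without the second W23 array, which leaves W23 with 1 array, the mean was -0.11.

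**Figure D1:**
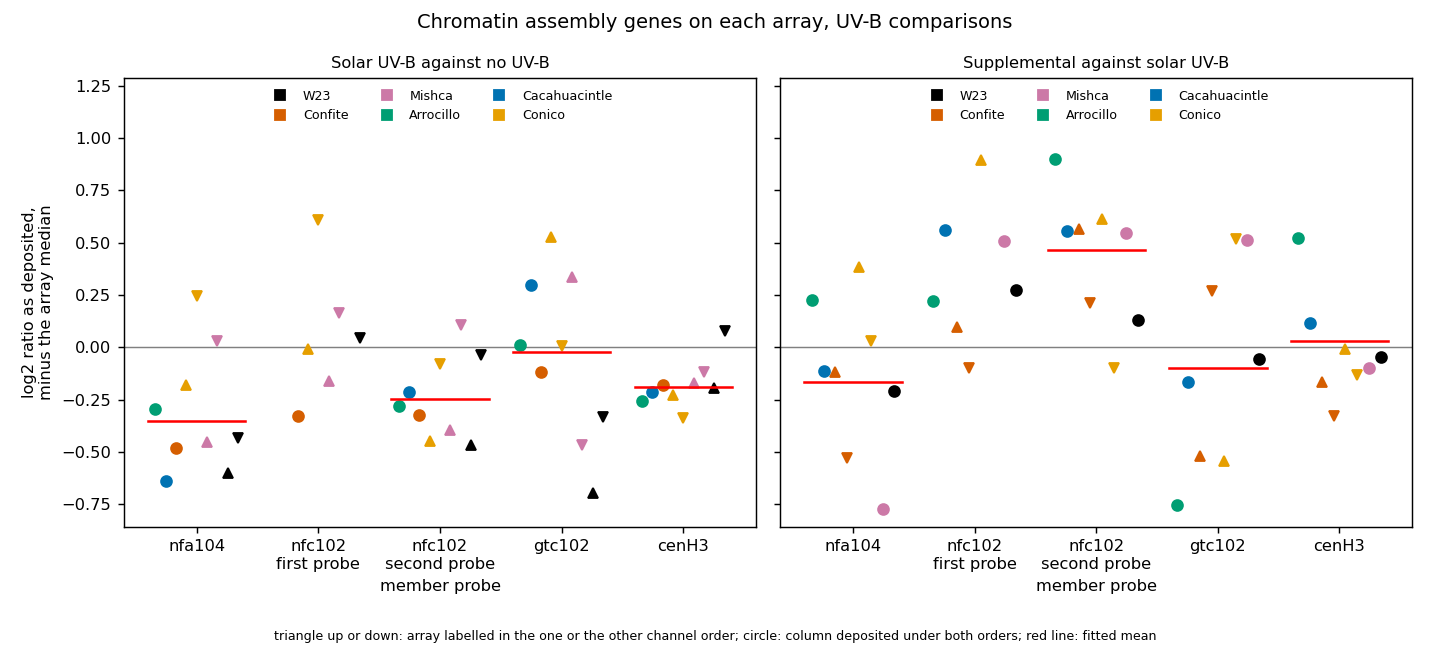
Centred log2 ratio (vertical axis, as deposited, minus the array median) of each member probe on each distinct array, with solar against no UV-B on the left and supplemental against solar UV-B on the right; colours are lines, marker shapes the channel order, red lines the fitted means. On the left nfa104, the second nfc102 probe and cenH3 sit mostly below 0, and on the right 7 of 8 arrays of the second nfc102 probe sit above 0.

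The channel in which each RNA was labelled moved with 2 of these 3 calls. For nfc102's second probe, the 3 solar arrays of one order averaged -0.44, the 3 of the opposite order -0.01, and the 3 columns deposited under both orders -0.27; the channel term was called (-0.22, adjusted p = 0.0220, limma). For nfa104 the same averages were -0.41, -0.05 and -0.47, and the channel term was called too (-0.18, adjusted p = 0.0482, limma). For cenH3 they were -0.20, -0.13 and -0.22, and the channel term was not called (-0.04, adjusted p = 0.641, limma). Over all probes the channel term was called for 28.9%.

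If the deposited ratio follows the channels, the arrays of the opposite order must be turned before they are averaged. With the ratio turned in this way the means were -0.13 for nfa104, -0.10 for the second nfc102 probe and -0.04 for cenH3, with adjusted p of 0.713, 0.651 and 0.895 by limma. No probe of the table was called with the ratio turned. With no channel term the means stayed at -0.35, -0.25 and -0.19 but none was called, and 11 of 4240 probes of the table were. Without centring the arrays, which moves the median of all probes from 0.01 to 0.08, the 3 means stayed negative (-0.28, -0.17 and -0.11) and none was called.

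Position on the array also moved with nfc102 and gtc102. The second nfc102 probe lies in the seventh of 8 equal runs of consecutive spots, where 166 of the 515 probes tested were called negative and 13 positive. Within that run 15.5% of the probes lay at or below it. Once each of 16 sections was centred on its own median the solar means were -0.16 for nfc102 (adjusted p = 0.0155, limma), -0.32 for nfa104 (adjusted p = 0.00498, limma) and -0.22 for cenH3 (adjusted p = 0.0318, limma). The run of gtc102 leaned to the positive side, with 108 of 502 tested probes called positive and 27 negative. With sections centred its solar mean went from -0.02 to -0.13 (SE 0.05, adjusted p = 0.0926, limma).

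When supplemental UV-B was set against solar UV-B, 1 of the 4 members tested was called, the second nfc102 probe, and it stood on the positive side. The share called among all 4744 probes tested was 31.7%, with 15.5% positive and 16.2% negative (48.9% of calls positive, or 62.0% without centring). The median over the 4 tested members was -0.04, and over all probes -0.01. Its arrays gave 0.13 for W23, 0.57 and 0.21 for Confite, 0.55 for Mishca, 0.90 for Arrocillo, 0.56 for Cacahuacintle, and 0.61 and -0.10 for Conico. Thus 7 of 8 arrays and 6 of 6 lines were positive. The mean of 0.46 (SE 0.08, n = 8 arrays; 1.38-fold; adjusted p = 0.000392, limma) lay at the 97.8th percentile of the tested probes.

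The first nfc102 probe lay on the positive side on 6 of the 7 arrays that measured it. It gave 0.27 for W23, 0.10 and -0.10 for Confite, 0.51 for Mishca, 0.22 for Arrocillo, 0.56 for Cacahuacintle and 0.90 on the measured Conico array. With 1 Conico array missing, no residual degree of freedom was left for this probe, so it was not tested with the channel term; without that term its mean was 0.41 (adjusted p = 0.201, limma). Over the 13 arrays of both UV-B comparisons that measured both probes, they correlated with a Pearson r of 0.58, a description of arrays that share lines and channel orders.

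The call of the second nfc102 probe had 1 residual degree of freedom and borrowed its spread from the other probes. By channel order its arrays averaged 0.59 and 0.06, and 0.53 for the columns deposited under both orders (channel term 0.27, adjusted p = 0.0625, limma; called for 24.0% of all probes). In Confite and Conico alone, the lines with both orders, its mean was 0.32 and not called (adjusted p = 0.0767, limma). With the ratio turned by channel order it was 0.23 (adjusted p = 0.405, limma), or -0.05 where the columns deposited under both orders took their second label (adjusted p = 0.918, limma), and no probe of the table was called in either reading. Its run again leaned the same way, with 180 of 635 tested probes called positive and 19 negative; with sections centred the mean was 0.42 (adjusted p = 5.56e-06, limma).

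The other members had no called mean under supplemental UV-B. For nfa104 and gtc102 the test of a difference between lines passed the threshold. In W23, Mishca, Arrocillo and Cacahuacintle, with 1 distinct array each, a line cannot be told apart from its array. The arrays of nfa104 gave -0.21 for W23, -0.12 and -0.53 for Confite, -0.77 for Mishca, 0.23 for Arrocillo, -0.11 for Cacahuacintle, and 0.38 and 0.03 for Conico. Its mean was -0.16 (SE 0.07, n = 8 arrays; adjusted p = 0.0955, limma). Both Confite arrays were negative and both Conico arrays positive, and the difference between lines had an adjusted p of 0.0399 by limma, a threshold that 24.6% of all probes passed. Without the single Mishca array that adjusted p was 0.355.

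For gtc102 the arrays gave -0.06 for W23, -0.52 and 0.27 for Confite, 0.51 for Mishca, -0.75 for Arrocillo, -0.16 for Cacahuacintle, and -0.54 and 0.52 for Conico. Within Confite and within Conico the 2 channel orders lay on opposite sides: the arrays averaged -0.53 in one order and 0.39 in the opposite one (channel term -0.46, adjusted p = 0.00417, limma). Its mean was -0.10 (SE 0.07, n = 8 arrays; adjusted p = 0.317, limma), and its difference between lines had an adjusted p of 0.0470 by limma, or 0.346 without the Mishca array.

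Values of cenH3 were -0.05 for W23, -0.17 and -0.33 for Confite, -0.10 for Mishca, 0.52 for Arrocillo, 0.12 for Cacahuacintle, and -0.01 and -0.13 for Conico, with a mean of 0.03 (SE 0.07, n = 8 arrays; adjusted p = 0.786, limma). Thus 6 of 8 arrays were negative, and only the Arrocillo and Cacahuacintle arrays were positive.

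Line by line, Mishca held 3 of the 4 member calls under supplemental UV-B: gtc102 (0.51), nfa104 (-0.77) and the second nfc102 probe (0.55), with adjusted p of 0.0474, 0.00451 and 0.0370 by limma. In that line, which rests on 1 distinct array, 41.5% of all probes were called. The remaining call was the second nfc102 probe in Arrocillo (0.90, adjusted p = 0.0408, limma), where 0.759% of all probes were called, also from 1 distinct array. No member was called alone in Conico, Confite, W23 or Cacahuacintle, where 4.24%, 2.13%, 0.506% and 0.211% of all probes were.

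Set side by side, the second nfc102 probe was on the negative side in 6 of 6 lines under solar UV-B and on the positive side in 6 of 6 lines under supplemental UV-B. The 2 comparisons both contain the solar treatment, and whether any RNA was used on arrays of both is not given in the sources used here. The difference between the 2 comparisons was not tested. Tested probes of the same run leaned alike, 166 called negative and 13 positive under solar UV-B, 19 negative and 180 positive under supplemental UV-B. In one channel order the probe averaged -0.44 and 0.59, in the opposite one -0.01 and 0.06. Columns deposited under both orders averaged -0.27 and 0.53. How many of all probes changed side in this way was not counted.

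**Figure D2:**
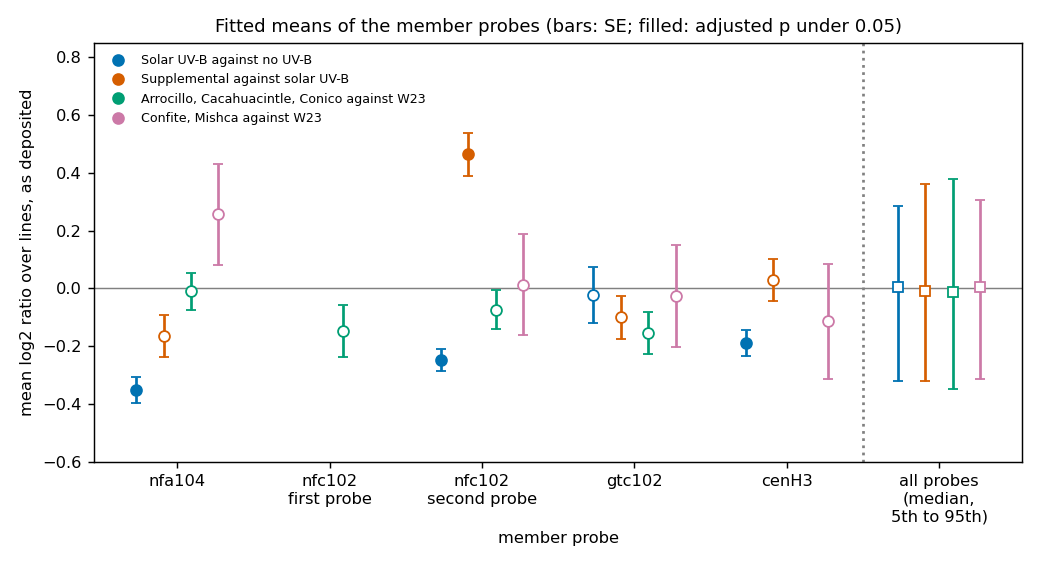
Mean log2 ratio over lines (vertical axis) of each member probe in the 4 comparisons, with standard errors as bars and filled points for adjusted p under 0.05, beside the median and the 5th to 95th percentile of all tested probes. The filled points are nfa104 (-0.35), the second nfc102 probe (-0.25) and cenH3 (-0.19) for solar UV-B, and the second nfc102 probe (0.46) for supplemental UV-B.

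In Arrocillo, Cacahuacintle and Conico against W23, 0 of the 4 member probes tested were called by limma, against 25.6% of all 5353 probes. At an unadjusted p under 0.05 the count was also 0, the lowest being 0.0522 for gtc102, against 1985 of all 5353 probes, and the fit without moderation called 0 as well. The median over the 4 tested probes was -0.11, and over all probes -0.01. Those 4 probes stand for 3 genes, since nfc102 counts with both probes and cenH3 is left out. The gene with the most one-sided values was cenH3, which could not be tested because it was measured on 6 of 12 arrays. All 6 lay on the positive side. They were 0.62 on the first Arrocillo array with UV-B, 0.53 on the second Cacahuacintle array without UV-B, and 0.20, 0.30, 0.41 and 0.40 on the 4 Conico arrays. On their arrays these values ranked from the 78.8th to the 94.7th percentile. It was blank on 3 of 4 Arrocillo and on 3 of 4 Cacahuacintle arrays. By channel order its values averaged 0.35 on 2 arrays and 0.44 on 4. With the ratio turned by channel order, these 2 averages would lie on opposite sides. How many of all probes kept to 1 side in this way was not counted.

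For gtc102, 10 of 12 arrays were negative, from -0.55 on a Cacahuacintle array without UV-B to 0.60 on the first Arrocillo array with UV-B, with a median of -0.17. The mean was -0.15 (SE 0.07, n = 12 arrays; adjusted p = 0.139, limma). Its line values were -0.30 for Cacahuacintle, -0.11 for Conico and -0.05 for Arrocillo. Without that first Arrocillo array the mean was -0.20 and was called (adjusted p = 0.0421, limma).

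Both probes of nfc102 had negative line values in 3 of 3 landraces, and neither mean was called. The first ranged from -0.72 to 0.73 with 9 of 12 arrays negative and a mean of -0.15 (SE 0.09; adjusted p = 0.254, limma). The second ranged from -0.31 to 0.38 with 8 of 12 negative and a mean of -0.07 (SE 0.07; adjusted p = 0.454, limma). Over these 12 arrays the 2 probes of the gene correlated at -0.62, while the first correlated with gtc102 at 0.86, as a description only. By channel order the first averaged -0.35 and 0.01 and the second 0.07 and -0.20, so the 2 probes split by order in opposite directions.

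Values of nfa104 lay from -0.49 to 0.41, with 7 of 12 arrays negative, and split by channel order, averaging 0.16 on the 6 arrays of one order and -0.20 on the 6 of the opposite one (channel term 0.20, adjusted p = 0.0604, limma; called for 13.9% of all probes). Its mean was -0.01 (SE 0.06; adjusted p = 0.930, limma). With the ratio turned by channel order the mean was 0.14, the sign being the opposite one, and it was not called.

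Within the landrace comparisons, no member was called for the difference between treatments. The labels give Cacahuacintle 3 arrays without and 1 with UV-B, where Arrocillo and Conico have 2 of each, and the labels do not settle whether a Cacahuacintle array carries the wrong treatment. Arrays with UV-B minus those without gave -0.07 for the second nfc102 probe, 0.33 for the first, 0.07 for gtc102 and 0.12 for nfa104 in these 3 landraces, with adjusted p between 0.969 and 0.984 by limma. For the first nfc102 probe the arrays averaged 0.07 with and -0.35 without UV-B, and the SE of the fitted difference was 0.18. For nfa104 they averaged -0.04 and -0.01, and the fitted difference, which weights lines equally and holds the channel term, lies on the opposite side. Of all probes on those arrays 0% were called for this difference by limma, and 257 of 5353 had an unadjusted p under 0.05. In Confite and Mishca the differences ran from 0.05 for nfa104 to 0.22 for the second nfc102 probe. Their SE was 0.35 (0.40 for cenH3, at 0.18), from a variance pooled over all probes. None was called by limma, as against 0.0957% of all probes.

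**Figure D3:**
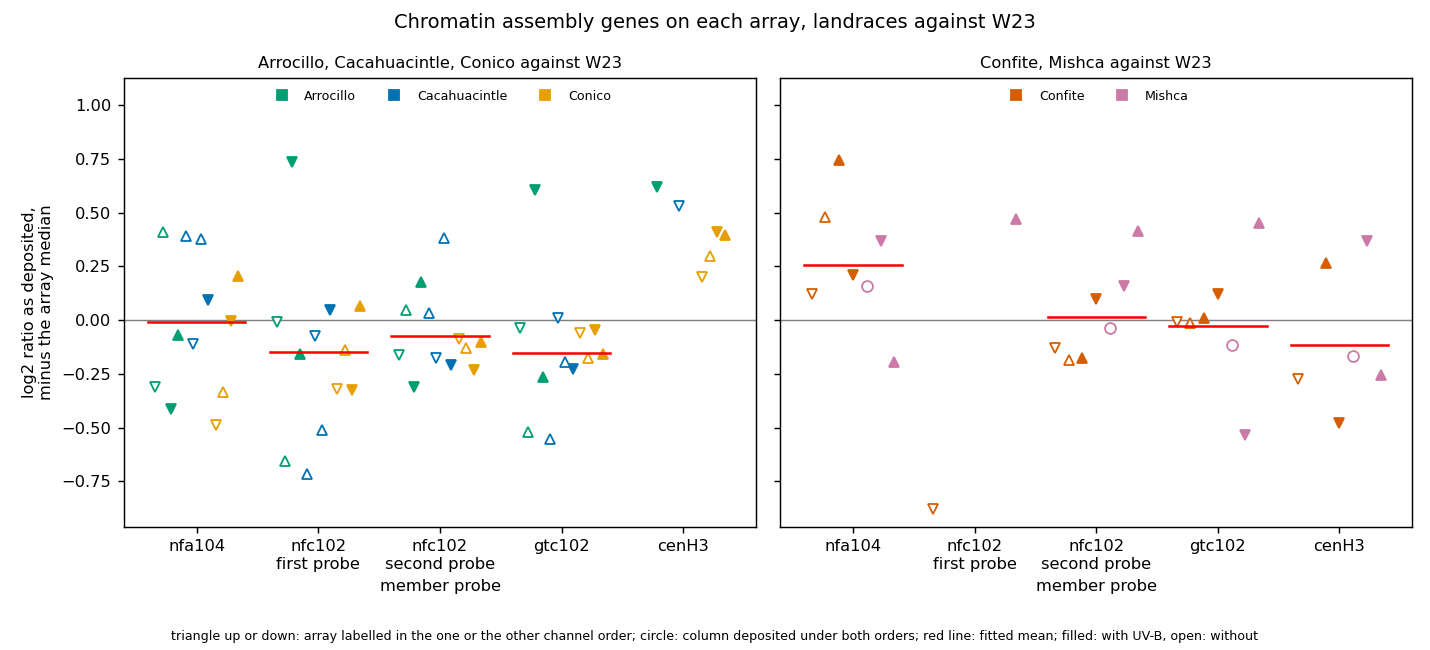
Centred log2 ratio (vertical axis) of each member probe on each array of a landrace against W23, with Arrocillo, Cacahuacintle and Conico on the left and Confite and Mishca on the right; filled markers are arrays with UV-B and open ones without, and triangles give the channel order. All 6 measured cenH3 values on the left, from 12 arrays, lie between 0.20 and 0.62. On the right 6 of 7 nfa104 values lie above 0, the highest on an array with 68.0% of its spots blank.

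In Confite and Mishca against W23, 0 of the 4 member probes tested were called by limma, against 1.63% of 2089 probes. Blank spots left fewer probes to test here, and no member had an unadjusted p under 0.05, as 153 of the 2089 did. Of the nfa104 arrays, 6 of 7 were on the positive side. Confite gave 0.12 and 0.48 without UV-B and 0.74 and 0.21 with it, and Mishca gave 0.16 without and 0.37 and -0.20 with it. The Confite arrays at 0.48 and 0.74 had 72.6% and 68.0% of their spots blank, and those at 0.12 and 0.21 had 7.40% and 17.3%. On the Mishca arrays at 0.16, 0.37 and -0.20 the blank shares were 42.5%, 44.2% and 7.74%. The mean was 0.26 (SE 0.18, n = 7 arrays, adjusted p = 0.988 by limma), with a 95% interval from -0.09 to 0.60. In this comparison moderation gave all probes 1 common variance. The SE, interval and p-value therefore hold nothing of the probe's own spread. Without moderation the SE of nfa104 was 0.17.

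The other members stayed near 0 in mean, with wide spread. The 7 arrays of gtc102 ran from -0.54 to 0.45 (mean -0.03, SE 0.18), with both ends on the 2 Mishca arrays with UV-B, which differ in channel order. Those of the second nfc102 probe ran from -0.18 to 0.41 (mean 0.01, SE 0.18), and the 6 measured cenH3 values from -0.48 to 0.37 (mean -0.11, SE 0.20). All 3 had an adjusted p of 0.996 by limma. Their SEs, like that of nfa104, come from the common variance. Without moderation the SEs were 0.17 for gtc102, 0.07 for the second nfc102 probe and 0.31 for cenH3. The first nfc102 probe was measured on 2 arrays, at -0.88 for Confite without and 0.47 for Mishca with UV-B.

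The arrays name 13 other chromatin genes, with 16 probes. Under solar UV-B 13 of these probes were tested and 2 were called (15.4%, against 35.0% of all probes; median 0.01): hac106, a histone acetyltransferase gene, at 0.26 (SE 0.05, adjusted p = 0.0144, limma), and mbd113, a methyl-CpG-binding domain gene, at -0.19 (SE 0.04, adjusted p = 0.0173, limma). The other gene of the nucleosome assembly group named on the arrays, nfa101, stood at 0.11 (SE 0.04, adjusted p = 0.0881, limma), on the side opposite to nfa104. The gene nfc103, named in the same group as nfc102, was not tested there, since it had no value on the Arrocillo array.

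Under supplemental UV-B 4 of 14 probes were called (28.6%, against 31.7%; median -0.02). The histone deacetylase gene hda110 stood at -0.29 and hac106 at -0.38. On the positive side were fie2, a Polycomb group gene, at 0.22, and 1 probe of the deacetylase gene Hda1 at 0.45, while the other Hda1 probe was at 0.00. In Arrocillo, Cacahuacintle and Conico against W23, 3 of 14 were called (21.4%, against 25.6%; median 0.01). These were 1 probe of the DNA methyltransferase gene met2 at 0.37 with its other probe at 0.09, fie2 at -0.26, and 1 probe of Hda1 at 0.27 with its other probe at 0.04. In Confite and Mishca 0 of 6 were called by limma, and mbd111 had an unadjusted p under 0.05 there (-0.46, adjusted p = 0.490, limma).

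Across the 17 arrays of both UV-B comparisons, the named probes whose log2 ratios ran most like a member's were found by Pearson r. They share lines, channel orders and array positions with the members, so the values are a description. For cenH3 they were mbd113 (0.70), the hypersensitive-induced reaction gene hir1 (0.67) and LOC606477 (0.65). With sections centred these became 0.59, 0.67 and 0.00. For nfa104 they were LOC606433 (0.81), pgl1 (0.81, over 15 arrays) and yptm1 (0.79), and 0.58, 0.31 and 0.50 with sections centred.

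The second nfc102 probe ran most like the ferritin gene fer1 (0.79), glct1 (0.77) and the phototropin gene phot1 (0.77). With sections centred phot1 stayed at 0.77 and fer1, from the same run of spots, came to 0.08. The first nfc102 probe ran most like xyl1 (0.91), the alcohol dehydrogenase gene adh1 (0.90) and the seed globulin gene Globulin-2 (0.86) over 13 arrays. For gtc102 the closest were mgs2 (0.94), the auxin-binding protein gene abp4 (0.92) and the glycine-rich protein gene grp1 (0.90), and grp1 came to 0.38 with sections centred. Between members the closest pair of different genes was the second nfc102 probe and cenH3, at 0.65, while gtc102 correlated negatively with each of the other 4 member probes, from -0.50 to -0.23. That closest pair stood at 0.49 with sections centred, and at -0.82 over the 6 arrays of the 3 landraces against W23 that measured cenH3. With sections centred the correlations of gtc102 with the other members were all positive, from 0.01 to 0.73.

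Markers of other tissues and cell types were read beside these values, as ratios, which give no level. Under solar UV-B 1 of 3 tested seed probes was called, a globulin-1 probe at -0.46 with the gene's other probe at -0.01. The pollen expansin EXPB9 (-0.34 on its 1 tested probe; adjusted p = 0.0121, limma) and the mesophyll gene pdk1 (0.30; adjusted p = 0.0250, limma) were called too, and 0 of 2 bundle sheath probes (ssu1 and rca1) were called by limma. Under supplemental UV-B 1 of 4 seed probes (Globulin-2, 0.29) and 1 of 2 pollen probes (EXPB9, 0.28) were called. Against W23, 3 of 4 seed probes (globulin-1 at 0.48 and -0.31, Globulin-2 at 0.24) and rca1 (0.52) were called in the 3 landraces, and no marker in Confite and Mishca by limma. Their part in the member values was not tested.

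**Figure D4:**
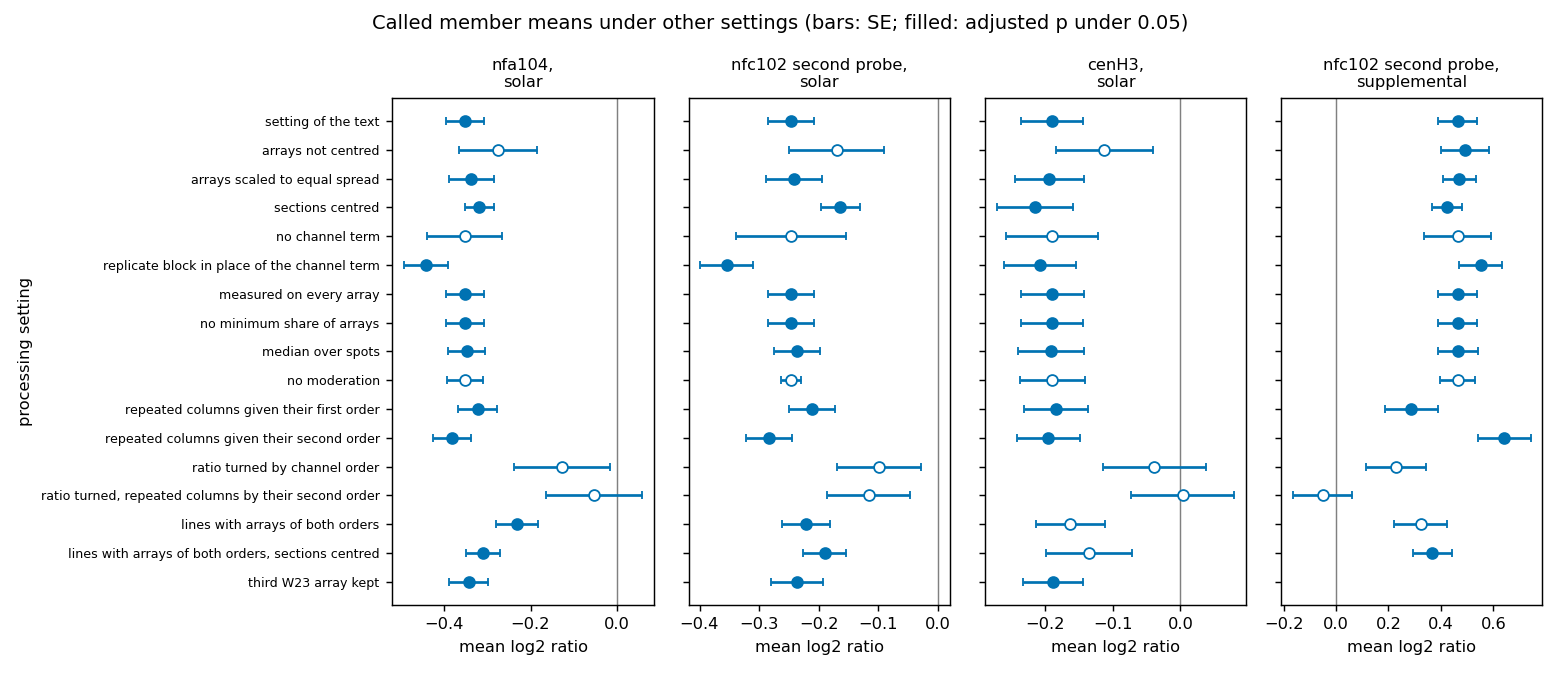
Mean log2 ratio over lines (horizontal axis) of the 4 called member means under each processing setting (vertical axis), with standard errors as bars and filled points for adjusted p under 0.05. In all 4 panels the points with no channel term, with no moderation and with the ratio turned by channel order are open.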

How the data were processed

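The deposited files are 2 tables that held, per the file headers, 1 log2 value per spot and array that the authors deposited; per the labels each array held 2 RNAs in 2 channels. Per the design text of the series, the authors modelled base-2 log intensities with line, treatment, array and dye terms; whether the deposited log2 ratios passed through those models is not given in the sources used here. Columns that repeat another (8, SD of the difference under 0.01) were counted once, and the third W23 solar column, an average of its 2 companions (SD 0.032), was left out.

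Spots of a probe (3) were averaged and arrays centred on their median (deposited medians from -0.47 to 0.61). A probe needed values on 75% or more of a comparison's arrays, with 1 or more in each group, before limma 3.58.1 (R 4.3.3) was run, with a coefficient per line (or line and treatment) and a channel term, coded 0 for columns deposited under both orders. Tests were two-sided and moderated, with Benjamini-Hochberg adjustment over all probes of a comparison. A fit drops the arrays on which a probe is blank. Tables were tested separately. A line with a single distinct array took its error from the remaining lines. In simulated data all probes changed by 0.5 or 1 (log2) were recovered in the first 3 comparisons, and 44% and 99% in Confite and Mishca. Every member mean of the main fits was smaller in size than 0.5, the largest being 0.46. Smaller changes were not simulated, so the recovery does not tell whether changes of that size would be found. The number of arrays limits the precision.

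Names came from platform annotation and, through Entrez genes, the Zm-B73-REFERENCE-NAM-5.0 annotation; 5239 and 5354 probes had no name here. A cDNA probe can also bind transcripts of related genes. Genes named are all members, other chromatin genes that were called, and per member probe the 3 named probes with the highest correlation. nfa101, nfc103 and mbd111 were added after their values were seen. The members and lists were chosen with earlier results of these data known. In the solar comparison, deviations of same-numbered arrays correlated between 0.48 and 0.88 for W23, Mishca and Conico; there the replicate number is also the channel order, which the fit already holds. Alternatives were other centring, scaling, channel handling, filters, spot medians, no moderation and leaving out each array; turning repeated columns by their second label, and sections centred in lines with both orders, were added after the data were seen.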

Additional observations from a re-analysis of the deposited data

Results flagged for a closer look

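Under supplemental UV-B the difference between lines passed the threshold for nfa104 (adjusted p = 0.0399, limma) and gtc102 (adjusted p = 0.0470, limma). With arrays scaled to equal spread these were 0.273 and 0.211, and with sections centred 0.0971 and 0.0253.

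Among lines or groups with 2 distinct arrays, 4 pairs lay wholly on opposite sides, a difference that was not tested for the pair. Such pairs were not counted over all probes, so the count is no result about the members. Under solar UV-B, the mean of gtc102 in W23 minus that in Conico was -0.78 on the log2 scale, with the lower Conico array at 0.0041. Under supplemental UV-B, Confite minus Conico was -0.53 for nfa104. In the landrace arrays, Confite without minus with UV-B was -0.077 for gtc102. Both arrays without UV-B stood at -0.011 there and the lower one with UV-B at 0.011. Mishca with UV-B minus Confite without was 0.44 for the second nfc102 probe. No labelled group held enough arrays for a search for single outlying arrays.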

How the results depend on the processing

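Under solar UV-B the member count of 3 became 0 without centring, with no channel term, with no moderation, and with the ratio turned by channel order under either label of the repeated columns; it was 2 in lines with both orders and 2 to 4 when single arrays were left out. Under supplemental UV-B the count of 1 became 0 with no channel term, with no moderation, in lines with both orders, and with the ratio turned under either label. It became 2 with the replicate block, which reads lines with both orders at the order of replicate 1. It also became 2 with repeated columns given their first or their second order. The count was 1 to 2 when single arrays were left out, with Arrocillo as the array whose absence gave 2 (nfa104 -0.24, adjusted p = 0.0280, limma). For 4 such fits no residual degree of freedom was left and only values were had. The landrace counts of 0 ran from 0 to 1 for Arrocillo, Cacahuacintle and Conico, and were 0 throughout for Confite and Mishca. These differences follow the setting named; their cause was not tested.

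With the replicate block in place of the channel term the 3 solar members were still called (nfa104 -0.44, second nfc102 probe -0.35, cenH3 -0.21). It also called gtc102 under supplemental UV-B (-0.25, adjusted p = 0.0250, limma) and ended no member call. In both UV-B comparisons the replicate number is also the channel order. There the block is the same fit as the channel term, but lines with both orders are read at the order of replicate 1. These calls are therefore no separate check, and the gtc102 value takes in part of its channel term (-0.46). Deviations of same-numbered arrays correlated at 0.66 in the 1 supplemental pair of lines, where the replicate number is also the channel order, which the fit already holds. Against W23 they correlated between -0.62 and 0.75 in the 3 landraces and between -0.25 and 0.26 in Confite and Mishca. The numbers were not taken as a pairing in those landrace comparisons.

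Signs turned mostly for means near 0. For solar gtc102 the mean was 0.054 without centring, 0.058 with the replicate block, 0.0044 with the second order, 0.17 with the ratio turned, and -0.11 to 0.063 without single arrays. For supplemental gtc102 it was 0.050 with sections centred, 0.21 with the first order, and -0.22 to 0.030 without single arrays. Supplemental cenH3 stood at -0.019 with the first order, -0.16 in lines with both orders, -0.15 there with sections centred, and -0.069 to 0.056 without single arrays. With the ratio turned and repeated columns by their second order, solar cenH3 was 0.0035, and supplemental nfa104, second nfc102 probe and cenH3 were 0.17, -0.052 and -0.16. Against W23 in 3 landraces, turning gave 0.12 for the second nfc102 probe and 0.14 for nfa104, which ran from -0.048 to 0.020 without single arrays. Against W23 in Confite and Mishca, gtc102 was 0.060 with sections centred, 0.010 with the first order, 0.14 and 0.079 turned under either label, and -0.16 to 0.10 without single arrays. There the second nfc102 probe was -0.10 without centring, -0.047 with the block, -0.026 turned by second order, and -0.039 to 0.094 without single arrays, and cenH3 was 0.049 with the block and 0.11 and 0.042 turned.

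Over all probes, solar calls numbered 1485, but 652 without centring, 653 in lines with both orders, 11 with no channel term, 2 with no moderation, 0 turned, and 809 to 2567 without single arrays. Supplemental calls numbered 1504, but 879 scaled, 184 in lines with both orders (1000 with sections centred), 0 with no channel term, no moderation or the ratio turned, and 733 to 1485 without single arrays. In the 3 landraces they numbered 1368, but 885 with no channel term, 892 with no moderation and 222 with the block. In Confite and Mishca they numbered 34, but 19 with the block, 9 with no channel term, 5 for probes on every array, 3 and 1 turned, 0 with sections centred or no moderation, and 6 to 58 without single arrays. Without centring the positive share of calls was 77.1% in place of 48.4% (solar), 62.0% in place of 48.9% (supplemental), 31.3% in place of 52.6% (3 landraces) and 16% in place of 52.9% (Confite and Mishca).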
